A study of Ceratopteris richardii with 15 samples.

Results

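Of 88641 genes in the expression table of the fern Ceratopteris richardii, 153 were listed mainly in the shoot tip of the young sporophyte. The members were chosen from the transcript values themselves, in TPM (a level corrected for the length of each gene and set so that every library has one common sum). A member had a shoot tip mean of at least 5 TPM, and that mean was at least 3 times the mean of leaf tip, leaf, root tip and root. A separate condition kept 1 root library, replicate 3, under 1 part in 3 of the shoot tip mean. The limit of 300 members in the rule was not reached. The members are 0.173% of the table and 0.746% of the 20499 genes at 5 TPM or more in shoot tip.

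RNA came from wild type RNWT1 sporophytes grown from spores to 50 days on half-strength Murashige and Skoog medium, with a long-day light cycle. There were 15 libraries, 3 for each of 5 tissues: shoot tip, leaf tip, leaf without its tip, root tip and root without its tip. Leaf and root below mean the organs without their tips, and the leaf libraries are called a, b and c because their columns carry no number that fits a single sample. Nothing in the labels says that replicates came from separate plants, so p-values measure only the spread between these libraries, which may be technical. The deposited values are TPM with 2 decimals, so the sequencing depth is unknown. A gene at 0 is therefore described as listed at 0.

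In ferns the shoot grows from an apical meristem organised around a large, dividing apical cell. The meristem lays down the stem and initiates leaves on its flanks, while new roots form from the stem below it. In Ceratopteris, class I KNOX transcription factor genes, which act in shoot meristems across land plants, are known to be expressed in the shoot apex. None of this can be read off the members by name. Their identifiers have the form written by the Trinity assembler, the files pair them with no gene names, and 0 of the 88641 matched a reference list of 36816 annotated Ceratopteris genes. No function, position or sequence is given here for any member, and the tissue labels could not be checked against known marker genes.

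One library, root replicate 3, differed from its fellow replicates over the whole table. Over the 39490 genes tested below, 3.72% were at 1 TPM or more there and more than 2-fold above the mean of root replicates 1 and 2. Another 5.92% were more than 2-fold below it. Contrasts with root are given with and without it as counts of calls and for named genes, and so are the main counts in root. Overlaps of calls, the count called in no comparison and shares over genes at 1 TPM or more in either tissue are given with it only.

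The members ranged widely in level. Their shoot tip means ran from 5.01 to 2806 TPM, with a median of 15.3 and quartiles of 7.77 and 48.5. A group of 22 members at 100 TPM or more held 85.7% of the members' summed TPM in shoot tip, and the 5 most abundant held 50.0%. The 40 members between 20 and 100 TPM held 9.67%, and the 91 members between 5 and 20 TPM held 4.64%. Most of the genes were thus low, and most of the RNA belonged to few of them.

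RT_TRINITY_DN12557_c0_g1 was the most abundant member, at 2801, 2815 and 2802 TPM in the shoot tip libraries. It reached 800, 814 and 850 TPM in root tip and 649, 625 and 620 in leaf tip. Leaf held 134, 131 and 134 TPM. In root it was at 50.5 and 58.3 TPM in replicates 1 and 2 and at 222 in replicate 3. The shoot tip libraries lay far above all others, and both other tips lay above leaf and root.

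RT_TRINITY_DN5116_c0_g1 came next, at 2554, 2580 and 2602 TPM in shoot tip. Leaf tip held 344, 358 and 352 TPM and root tip 127, 123 and 125. Leaf was low, at 15.2, 14.9 and 16.4 TPM. In root, replicates 1 and 2 held 12.9 and 13.3 TPM and replicate 3 held 275, so the root libraries spanned the range from the leaf level to above root tip.

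The members with the highest ratio of shoot tip to the next tissue were not the most abundant ones. This ratio, with 0.1 TPM added to both means, had a median of 5.94 and ran from 2.97 to 440. SHA_TRINITY_DN12733_c0_g1 had the ratio of 440. It was at 85.8, 90.2 and 87.9 TPM in shoot tip. Leaf tip held 0.08, 0.08 and 0.09 TPM, all 3 leaf libraries were listed at 0, and the highest other value was 0.3 TPM in root replicate 3, while root replicates 1 and 2 were listed at 0. SHA_TRINITY_DN6185_c0_g1 followed with a ratio of 85.2. It averaged 69.8 ± 0.705 TPM in shoot tip (SD, n = 3), and no library of the other tissues exceeded 0.84 TPM. In all, 50 members had a ratio of 10 or more and 42 had a ratio under 4.

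At the limit of the rule the values run on without a gap. The lowest ratios among the members were those of SHA_TRINITY_DN1045_c0_g1, at 7.2 ± 0.157 TPM against 2.36 ± 0.0802 in leaf tip, and of LA_TRINITY_DN13095_c0_g1, at 6.11 ± 0.355 and 1.99 ± 0.0854 (SD, n = 3 each). Just outside were LE_TRINITY_DN107_c0_g4 and SHA_TRINITY_DN14110_c1_g1, with ratios of 2.96 and 2.94, both against leaf tip. Without the added 0.1 TPM, which the 3-fold limit does not use, they stood at 2.98 and 2.94 times that mean. The members of lowest shoot tip mean were SHA_TRINITY_DN13853_c0_g2 at 5.01 TPM and SHA_TRINITY_DN2751_c1_g3 at 5.03 TPM. SHA_TRINITY_DN15842_c0_g1 and SHA_TRINITY_DN18183_c0_g1 met every other condition and lay just under 5 TPM, at 4.98 and 4.94.

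**Figure D1:**
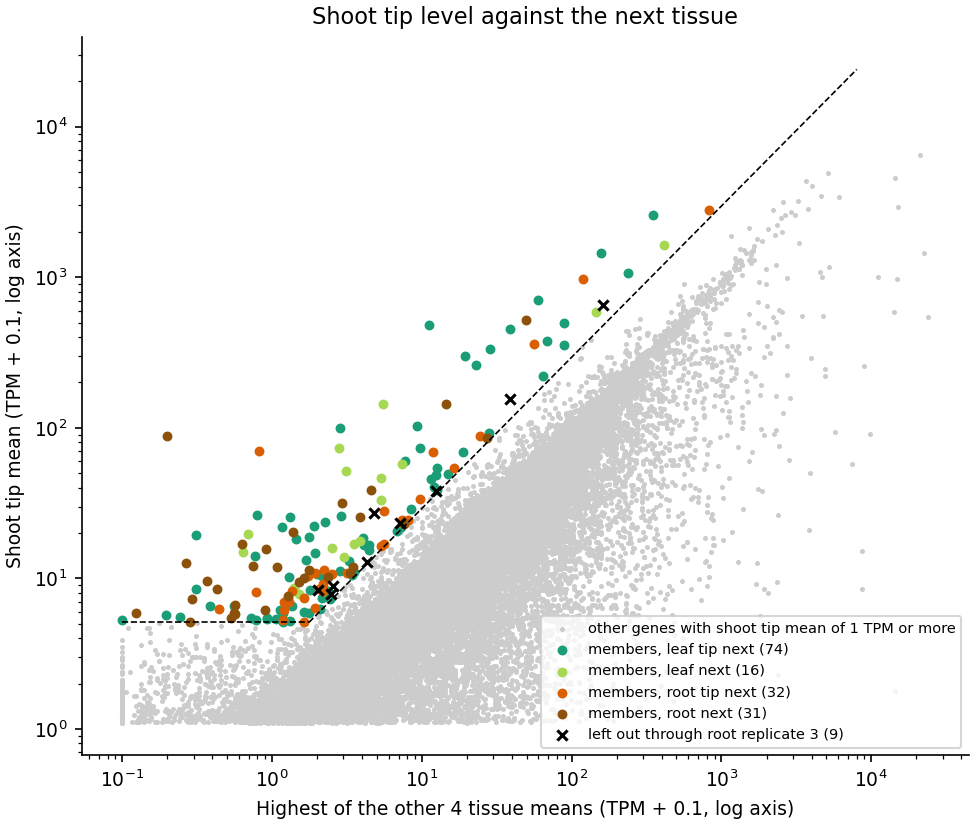
Shoot tip mean against the highest of the other 4 tissue means, both in TPM with 0.1 added and on log axes; each point is a gene, coloured points are the 153 members by which tissue came next, grey points are other genes and crosses are the 9 genes left out through root replicate 3. The dashed line is the limit of 5 TPM and 3-fold, and the members reach from that line up to a ratio of 440.

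Replicates of the shoot tip were close for nearly all members. The coefficient of variation over the 3 shoot tip libraries had a median of 4.36%, beside 3.95% for all 20499 genes at 5 TPM or more there. It was above 20% for 6 members. SHA_TRINITY_DN11439_c0_g1 had the largest, 75.9%, with 12.6, 1.42 and 15.7 TPM in shoot tip replicates 1, 2 and 3. Its root libraries held 1.73, 1.38 and 1.52 TPM, so shoot tip replicate 2 lay among them, and the other 9 libraries were listed at 0. LE_TRINITY_DN9328_c0_g1 had the next largest, 32.7%, with 5.15, 7.46 and 10.1 TPM. For the other 152 members the lowest shoot tip library was above the highest of the 12 remaining libraries, which follows largely from how they were chosen.

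Outside the shoot tip, the members' RNA was next most abundant in leaf tip. Summed over the 153 members, shoot tip libraries held 1.90%, 1.92% and 1.91% of all TPM. Leaf tip held 0.286%, 0.285% and 0.286%. Root tip held 0.197%, 0.200% and 0.204%, and leaf held 0.114%, 0.113% and 0.113%. In root the share was 0.0351% and 0.0359% in replicates 1 and 2, and 0.135% in replicate 3. Libraries of leaf tip, root tip and leaf formed separate groups in that order, and root lay below leaf in replicates 1 and 2 and above it in replicate 3. Without the 5 most abundant members, root replicate 3 summed to 542.39 TPM, just under the lowest leaf library at 542.95. These are bulk tissues, in which fewer cells of a type and less RNA per cell cannot be told apart.

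**Figure D2:**
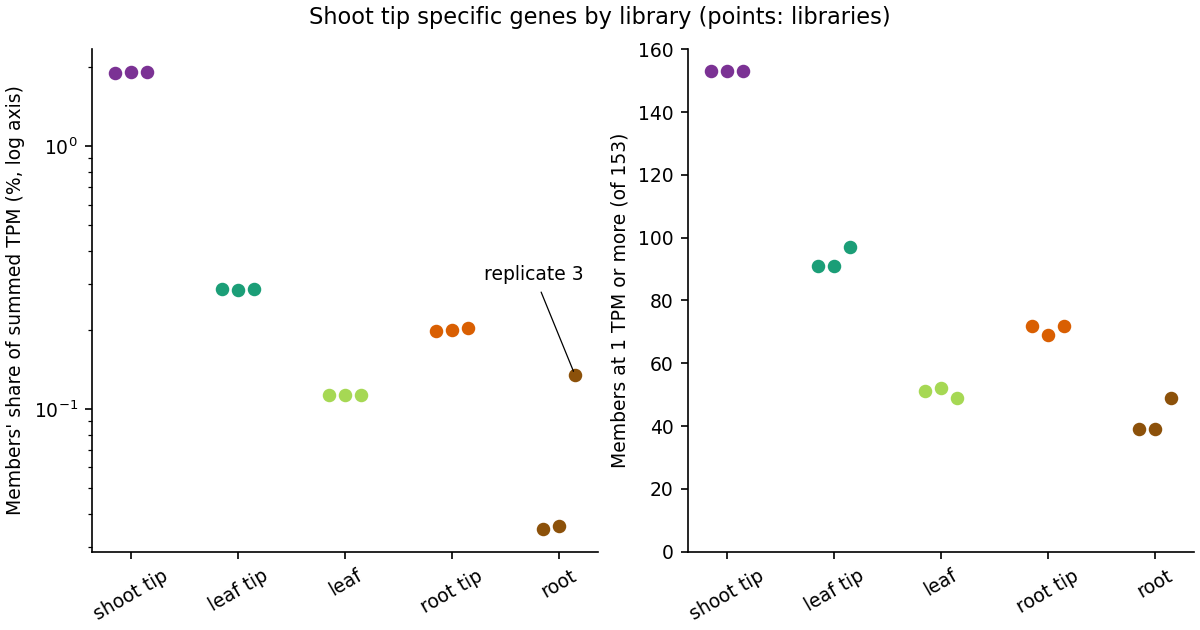
Left, the members' share of the summed TPM of each library in percent, on a log axis; right, the number of the 153 members at 1 TPM or more in each library. Points are libraries, 3 per tissue, and root replicate 3 lies at 0.135% while the other root libraries lie near 0.035%.

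A mean of at least 1 TPM was reached by 94 members (61.4%) in leaf tip, 71 (46.4%) in root tip, 51 (33.3%) in leaf and 41 (26.8%) in root. Among all tested genes these shares were 79.2%, 75.3%, 68.6% and 76.0%. Members listed at 0 in all 3 libraries numbered 16 in leaf tip, 23 in root tip, 25 in leaf and 20 in root. The median member was at 1.51 TPM in leaf tip, 0.707 in root tip, 0.217 in leaf and 0.3 in root. Without root replicate 3, 37 members reached 1 TPM in root and the median was 0.29. For 35 members every other tissue mean was under 1 TPM, and 22 members (21 without root replicate 3) were at 1 TPM or more in all 4. Leaf tip alone passed 1 TPM for 23 members, root tip alone for 12, root alone for 4 and leaf alone for 3. Both other tips passed it for 56 members, leaf tip without root tip for 38, root tip without leaf tip for 15, and neither for 44.

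The tissue that came second differed between members. It was leaf tip for 74 members, root tip for 32, root for 31 and leaf for 16. The 74 include SHA_TRINITY_DN14597_c0_g1, which was listed at 0 in all 12 other libraries, so no tissue came second for it. Leaf tip came second for 59 members with median-ratio scaling and for 64 with quantile normalization. For 113 of the 153 the libraries of the second tissue all lay above those of the third, and for the rest the order of the 2 was within the spread of replicates. Members with root in second place were mostly low there, with a median root mean of 0.98 TPM. In 16 of these 31 replicate 3 was the highest root library, beside 68 of all 153 members. Without it root came second for 26 members, leaf tip for 77, root tip for 33 and leaf for 17.

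The most abundant member with leaf in second place was RO_TRINITY_DN4088_c1_g1. It was at 1635, 1649 and 1650 TPM in shoot tip. Leaf held 406, 416 and 415 TPM and leaf tip 400, 404 and 402, so tip and organ were nearly level. Root tip averaged 97.6 ± 1.2 TPM (SD, n = 3), and root held 32.9, 32.3 and 98.8. With root in second place the most abundant was SHA_TRINITY_DN12570_c0_g1, at 524, 502 and 530 TPM in shoot tip. Its root libraries held 32.2, 30.7 and 86.6 TPM and its leaf libraries 33.3, 34.4 and 35.5. Both other tips were lower, with leaf tip at 9.21, 8.58 and 9.6 TPM and root tip at 13.2, 13.9 and 15. Root replicates 1 and 2 lay just under the leaf libraries for this gene.

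**Figure D3:**
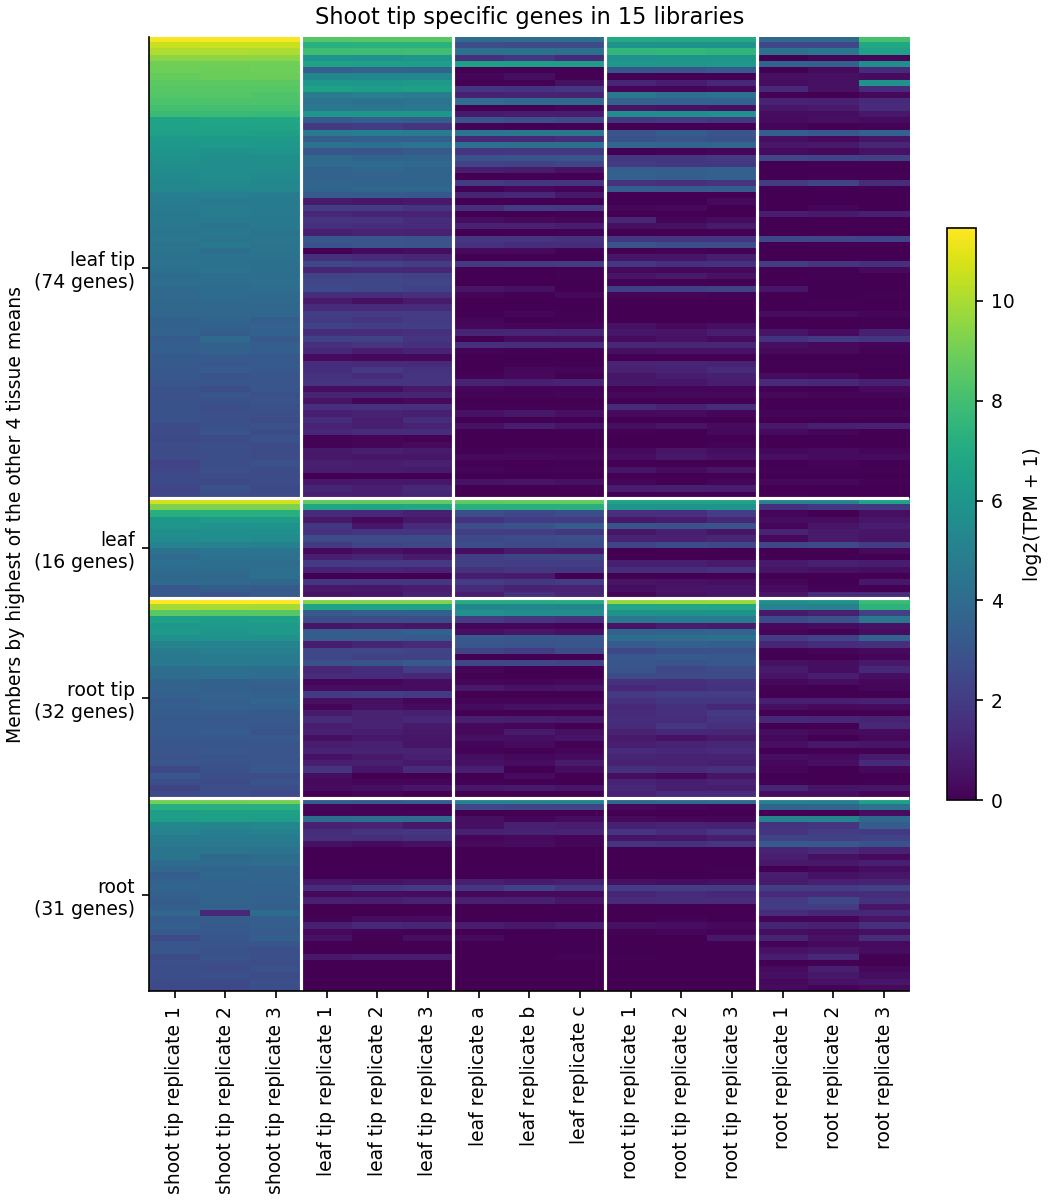
Values of the 153 members as log2(TPM + 1), shown by colour, with libraries in columns and members in rows; rows are grouped by the highest of the other 4 tissue means and ordered by shoot tip mean within each group. Leaf tip came second for 74 members, counting SHA_TRINITY_DN14597_c0_g1, listed at 0 in every other tissue. The brighter cells in the last column belong to abundant members in root replicate 3.

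Most members carried an identifier from the shoot tip. Identifiers begin with a code that matches the tissue columns, and 111 of the 153 (72.5%) had the shoot tip code SHA, beside 21.9% of all tested genes and 23.1% of the genes at 5 TPM or more in shoot tip. Another 16 members had the leaf tip code, 12 the root tip code, and 7 each the root and leaf codes. By level, 12 of 22 members at 100 TPM or more (54.5%), 24 of 40 between 20 and 100 TPM (60.0%) and 75 of 91 between 5 and 20 TPM (82.4%) had it. Among all genes at these shoot tip levels the shares were 23.7%, 23.0% and 23.1%, and the difference between levels was not tested. How the assembly placed a gene under a code is not given in the sources used here, and its part in these values was not tested.

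Few members shared an assembly component, the group of linked contigs within which Trinity separates genes. The 153 members lay in 152 components, and SHA_TRINITY_DN804_c0 held a pair of them. SHA_TRINITY_DN804_c0_g2 had a shoot tip mean of 26.2 ± 1.1 TPM, against 0.7 ± 0.08 for leaf tip, with leaf and root listed at 0. SHA_TRINITY_DN804_c0_g1 had a shoot tip mean of 31.4 ± 2.1 TPM, and its other tissue means lay between 1.12 and 2.85 TPM (SD, n = 3 each). The pair thus had like shoot tip levels and differed in the level elsewhere.

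A further 27 identifiers outside the set came from the components of 23 members, and they fell into contrasting kinds. There were 9 that lay more than 3-fold above each other tissue but under 5 TPM, and 11 that were at 5 TPM or more in shoot tip and short of 3-fold. The examples that follow were chosen after their values were seen. SHA_TRINITY_DN10947_c0_g1 and SHA_TRINITY_DN10947_c0_g3 had shoot tip means of 3.48 and 3.66 TPM and means under 0.1 TPM elsewhere, beside the member SHA_TRINITY_DN10947_c0_g2 at 11.9 TPM. SHA_TRINITY_DN814_c0_g1 was broad, at 51.6 TPM in leaf tip, 50.0 in shoot tip, 19.3 in leaf, 12.4 in root tip and 10.9 in root, beside the member SHA_TRINITY_DN814_c0_g2 at 85.7 TPM in shoot tip. RT_TRINITY_DN25617_c0_g3 was highest in root tip, at 4.96 TPM against 0.6 in shoot tip, beside a member at 705 TPM in shoot tip. How far reads were split between identifiers of 1 component was not tested, so single values of such genes are uncertain.

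The rule did not compare the other 4 tissues with each other, and contrasts among them were tested. It did limit each of their means, and root replicate 3 by itself, against the shoot tip mean. The limit on root replicate 3 left out 9 genes, and its part in the contrasts with root was not tested. The contrasts were fitted with limma on log2(TPM + 1) over 39490 genes at 1 TPM or more in at least 3 libraries, with all 15 libraries and 1 mean per tissue. A gene was called when its Benjamini-Hochberg adjusted p was under 0.05 and its log2 difference was at least 1 in size, which is 2-fold. All 153 members passed the filter, every one through its shoot tip libraries, which are in none of these contrasts. A gene under 1 TPM in both tissues of a pair cannot be called with this pseudocount. Shares are therefore also given over genes at 1 TPM or more in either tissue, a restriction chosen after the values were seen.

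Leaf tip was the higher of the pair for most members that differed between leaf tip and leaf. Of the 153 members, 56 (36.6%) were higher and 8 (5.23%) were lower in leaf tip, beside 25.3% higher and 11.2% lower among all tested genes. Over the 99 members at 1 TPM or more in either tissue the shares were 56.6% and 8.08%, beside 29.6% and 13.1% of all such genes. The median log2 difference was 0.42 for the members and 0.38 for all tested genes. Median-ratio scaling lowered the median difference of all genes by 0.382, and the background changed more than the members' calls. With it 29.4% of members were higher and 6.54% lower, beside 12.8% and 18.8% of all genes. Of the 56 members, 44 were called higher under all 3 scalings used.

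SHA_TRINITY_DN3129_c0_g1 showed the largest rise in leaf tip. Leaf tip held 68.5, 65.5 and 70.5 TPM and leaf 0.06, 0.06 and 0.42. Its shoot tip libraries were at 374, 380 and 376 TPM, and root tip was at 1.32, 0.87 and 1.53. In root it was at 0.29 and 0.41 TPM in replicates 1 and 2 and at 57.8 in replicate 3, and the fit takes 1 spread per gene over all libraries. The log2 difference of leaf tip against leaf was 5.89 (SE 1.0, adjusted p = 0.00012 by limma), and without root replicate 3 it had the same size with an SE of 0.12 (adjusted p = 4.2e-14).

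RO_TRINITY_DN41390_c0_g1 was high in every tip and low in both organs. Shoot tip held 226, 224 and 215 TPM, leaf tip 62.1, 65.4 and 65.3, and root tip 48.3, 49.2 and 53.8. Leaf held 0.8, 0.83 and 0.91 TPM and root 0.3, 0.33 and 0.66. Leaf tip exceeded leaf by 5.14 on the log2 scale (SE 0.078, adjusted p = 7.2e-16), and root tip exceeded root by 5.18 (adjusted p = 1.1e-15), or by 5.29 without root replicate 3.

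The 8 members that were lower in leaf tip than leaf included RT_TRINITY_DN3175_c0_g2. Shoot tip held 365, 361 and 360 TPM, leaf 55.2, 51.3 and 49.6, and leaf tip 8.63, 10.01 and 10.6. Root tip held 55.8, 56.2 and 56.8 TPM and root 0.7, 0.98 and 3.76. This gene was therefore abundant in shoot tip, at one level in root tip and leaf, and lower in leaf tip and root. Leaf tip against leaf gave a log2 difference of -2.31 (SE 0.26, adjusted p = 2.1e-06). SHA_TRINITY_DN7694_c0_g1 held 144, 147 and 142 TPM in shoot tip against 4.56, 4.19 and 4.16 in leaf. Leaf tip was at 0.13, 0.08 and 0.03 TPM (log2 difference -2.30, adjusted p = 1.6e-09).

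In the root, too, more members were higher than lower in the tip. In root tip 46 members (30.1%) were higher and 10 (6.54%) were lower than in root, beside 18.8% and 13.1% of all tested genes. The median log2 difference was 0.11 for the members and 0.08 for all genes. Over the 84 members at 1 TPM or more in either tissue the shares were 54.8% and 11.9%, beside 21.8% and 15.2% of all such genes. In 52 of the 56 called members (92.9%) the libraries of root tip and root did not overlap, beside 99.6% of all called genes. With a pseudocount of 0.1 there were 66 higher and 32 lower, beside 24.9% and 19% of all genes, so the members' share lower (20.9%) was then near the background. Leaving out root replicate 3 gave 46 higher and 10 lower as well, beside 18.8% and 13.9% of all genes. Of these members, 45 and 9 were shared with the calls on all libraries. Median-ratio scaling gave 40 higher and 10 lower, all among the calls as deposited, beside 15.5% and 15.8% of all genes.

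RT_TRINITY_DN25617_c0_g1 had the largest rise in root tip. Shoot tip held 697, 704 and 714 TPM, root tip 54.3, 59.5 and 60.3, and leaf tip 59.3, 58.3 and 61.4. Root held 0, 0.16 and 0.14 TPM and leaf 2.05, 2.58 and 1.63. The log2 difference of root tip against root was 5.75 (SE 0.090, adjusted p = 1.6e-15), and 5.77 without root replicate 3. Both other tips thus stood at like levels, far under shoot tip and far above root and leaf.

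SHA_TRINITY_DN814_c0_g2 moved the opposite way. Root held 33.4, 34.0 and 13.6 TPM and root tip 0.24, 0.13 and 0.11 (log2 difference -4.49, SE 0.24, adjusted p = 6.7e-10). Shoot tip held 85.2, 86.8 and 85.0 TPM and leaf tip 15.7, 16.1 and 14.9, while leaf held 0.37, 0.15 and 0.3. Here root replicate 3 was the lowest root library, and without it the log2 difference was -4.90. SHA_TRINITY_DN7694_c0_g1 was also lower in root tip, at 0.23, 0.12 and 0.08 TPM against 11.6, 12.2 and 19.1 in root (log2 difference -3.71, adjusted p = 9.5e-12, and -3.50 without root replicate 3). It was low in both other tips and present in both organs.

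Some members were higher in both tips than in the organs behind them. The comparisons of leaf tip with leaf and of root tip with root share no library. Among the members, 24 (15.7%) were higher in both tips, beside 10.1% of all tested genes. These 24 are 42.9% of the 56 in leaf and 52.2% of the 46 in root. Among all tested genes the overlap was 40.0% of the leaf list and 53.9% of the root list, so by this measure the members lay near the background. For 29 more, leaf tip exceeded leaf and the root pair was not called, and for 18 it was the root pair alone that was called higher. These are 19.0% and 11.8% of the members, beside 14.5% and 7.37% of all genes. There were 2 members lower in both tips, 3 higher in leaf tip and lower in root tip, and 4 the reverse, which are 1.31%, 1.96% and 2.61% beside 3.98%, 0.648% and 1.29% of all genes. Neither comparison called 66 members (43.1%), beside 47.7% of all genes.

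**Figure D4:**
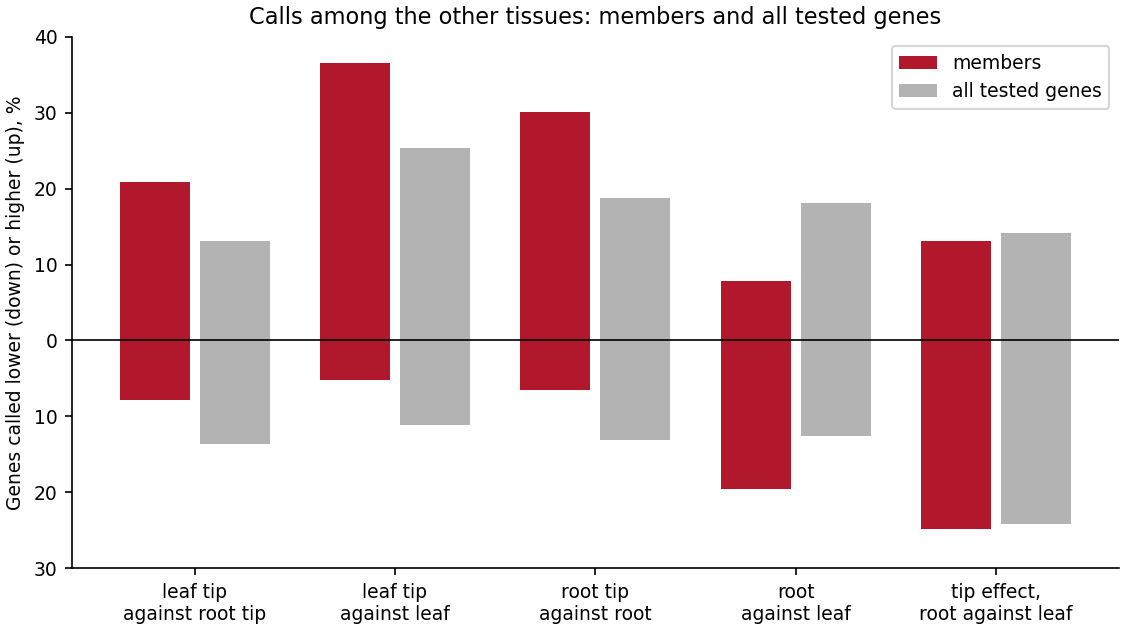
Share of genes called higher (upward) and lower (downward) in 5 comparisons among the other tissues, in percent, for the 153 members (red) and for all 39490 tested genes (grey). In leaf tip against leaf 36.6% of members were higher, beside 25.3% of all genes, and in root against leaf 7.84% were higher, beside 18.1%.

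Between the other tips, more members were higher in leaf tip than in root tip. There were 32 members (20.9%) higher in leaf tip and 12 (7.84%) higher in root tip, beside 13.1% and 13.6% of all tested genes. The median log2 difference was 0.27 for the members and 0.15 for all genes. Over the 109 members at 1 TPM or more in either tissue the shares were 29.4% and 11%, beside 14.9% and 15.4% of all such genes. The libraries did not overlap in any of these 44 calls, nor in 99.8% of the calls among all genes. These calls held under all 3 scalings for 28 of the 32 and 11 of the 12, and median-ratio scaling brought the background to 9.61% and 15%.

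SHA_TRINITY_DN3783_c0_g1 had the largest difference in favour of leaf tip. Shoot tip held 356, 352 and 361 TPM and leaf tip 92.7, 86.1 and 89.5. Root tip held 0.16, 0.13 and 0.19 TPM, leaf 2.36, 2.22 and 2.46, and root 1.41, 0.44 and 1.55. The log2 difference of leaf tip against root tip was 6.28 (SE 0.15, adjusted p = 1.7e-13). SHA_TRINITY_DN2968_c0_g2 held 428, 470 and 459 TPM in shoot tip against 36.9, 39.8 and 38.8 in leaf tip, and no library of leaf, root tip or root exceeded 0.45 TPM (log2 difference 5.28, adjusted p = 2.6e-15). Both were genes of the shoot and leaf tips with little in root tip.

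In favour of root tip the largest differences were those of RT_TRINITY_DN3175_c0_g2, described above (log2 difference -2.42, SE 0.26, adjusted p = 1.6e-06), and SHA_TRINITY_DN8425_c0_g1. For the latter, shoot tip held 34.2, 32.8 and 33.8 TPM, root tip 8.77, 10.4 and 9.64, and leaf tip 0.89, 1.3 and 1.65. Leaf held 7.12, 6.66 and 7.33 TPM and root 1.26, 1.72 and 1.92 (leaf tip against root tip, log2 difference -2.23, adjusted p = 7.2e-10). In both genes root tip and leaf were close and leaf tip and root were lower.

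Between the organs, more members were lower than higher in root. In root 12 members (7.84%) were higher and 30 (19.6%) were lower than in leaf, beside 18.1% and 12.6% of all tested genes. The median log2 difference was 0 for the members and 0.22 for all genes. Of the members, 66 were at 1 TPM or more in either tissue and could be called, and over these the shares were 18.2% and 45.5%, beside 21.8% and 15.1% of all such genes. With a pseudocount of 0.1 the members were closer to even, with 37 higher (24.2%) and 44 lower (28.8%), beside 25.8% and 16.8% of all genes. Without root replicate 3 there were 11 higher (7.19%) and 31 lower (20.3%), beside 19.1% and 12.7% of all genes. Of these members, 10 and 29 were shared with the calls on all libraries. Median-ratio scaling gave 13 higher and 31 lower, beside 15.4% and 15.6% of all genes.

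LA_TRINITY_DN15581_c1_g1 was the member with the largest difference in favour of leaf. Leaf held 146, 145 and 143 TPM and root 2.02, 2.58 and 2.64 (log2 difference of root against leaf -5.42, SE 0.056, adjusted p = 2.3e-17, and -5.47 without root replicate 3). Shoot tip was at 586, 596 and 586 TPM, leaf tip at 106, 103 and 111, and root tip at 59.4, 57.4 and 59.8. Root was the only tissue in which this gene was low. RT_TRINITY_DN3175_c0_g2 followed (log2 difference -4.39, adjusted p = 2.3e-09, and -4.85 without that library). In favour of root were SHA_TRINITY_DN814_c0_g2 (log2 difference 4.35, adjusted p = 9.5e-10, and 4.77 without it) and RT_TRINITY_DN52207_c0_g1. For the latter, shoot tip held 22.8, 22.9 and 23.0 TPM, root 8.6, 7.76 and 6.3, and leaf 0.23, 0.31 and 0.13 (root against leaf, log2 difference 2.80, adjusted p = 8.3e-12, and 2.91 without it).

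Whether the step from organ to tip differed between root and leaf was tested as an interaction. The log2 difference of root tip from root exceeded that of leaf tip from leaf for 20 members (13.1%), and the reverse held for 38 (24.8%). Among all tested genes these were 14.1% and 24.2%, so the members' shares lay near the background. The median interaction was -0.22 for the members and -0.37 for all genes. Median-ratio scaling moved members and background in the same direction, but the background further. More members were still called in favour of leaf, while more of all genes were then called in favour of root. With it 16.3% of members were called in favour of root and 19.6% in favour of leaf, beside 19.4% and 16.7% of all genes.

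Among all 5 comparisons, 48 members (31.4%) were called in none, beside 32.4% of all tested genes. The calls depended on the pseudocount. A pseudocount of 5 left 22 of the 56 members higher in leaf tip than leaf and 25 of the 46 higher in root tip than root. The background fell as well, to 13% and 10% of all genes, against 14.4% and 16.3% of members, so for leaf tip against leaf the members' share lay close to the background. With the same pseudocount 7.84% of members were higher in leaf tip than root tip, beside 5.87% of all genes. In root 5.88% of members were lower than in leaf, beside 7.6% of all genes, so the members' share was no longer above the background.

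Root replicate 3 held more of the abundant members than the other root libraries did. The members summed to 351 and 359 TPM in root replicates 1 and 2 and to 1347 in replicate 3. In that library 20 members (13.1%) were at 1 TPM or more and more than 2-fold above the mean of replicates 1 and 2, beside 3.72% of all tested genes, and 3 were more than 2-fold below it, beside 5.92%. The 20 members held 90.7% of the members' sum in replicate 3. They included all 5 of the most abundant members and 12 of the 22 at 100 TPM or more in shoot tip. The remaining 133 members together summed to 125 TPM in replicate 3 and 140 TPM in the mean of the other root libraries.

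The size of this difference was not the same from member to member. By the ratio of replicate 3 to the mean of replicates 1 and 2, with 0.1 TPM added to both, SHA_TRINITY_DN3129_c0_g1, given above, came first and SHA_TRINITY_DN3273_c0_g1 next. The latter was at 1445, 1450 and 1455 TPM in shoot tip and at 4.68 and 4.42 in root replicates 1 and 2, against 115 in replicate 3. Over the 20 members replicate 3 stood at between 0.352% and 25.8% of the shoot tip mean. The rule set an upper limit on this share. It left out 9 genes that met every other condition, of which 8 were more than 2-fold higher in root replicate 3 than in the other root libraries. SHA_TRINITY_DN9182_c0_g1, at 654, 652 and 669 TPM in shoot tip, held 4.59, 4.28 and 474 TPM in root replicates 1, 2 and 3. For SHA_TRINITY_DN6930_c0_g1 replicate 3 was at 35.9 TPM, close to the 36.8 to 38.7 TPM of the shoot tip libraries, while replicates 1 and 2 were at 0.33 and 0.56. The part of this library in the choice of members was not tested beyond the counts given.

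**Figure D5:**
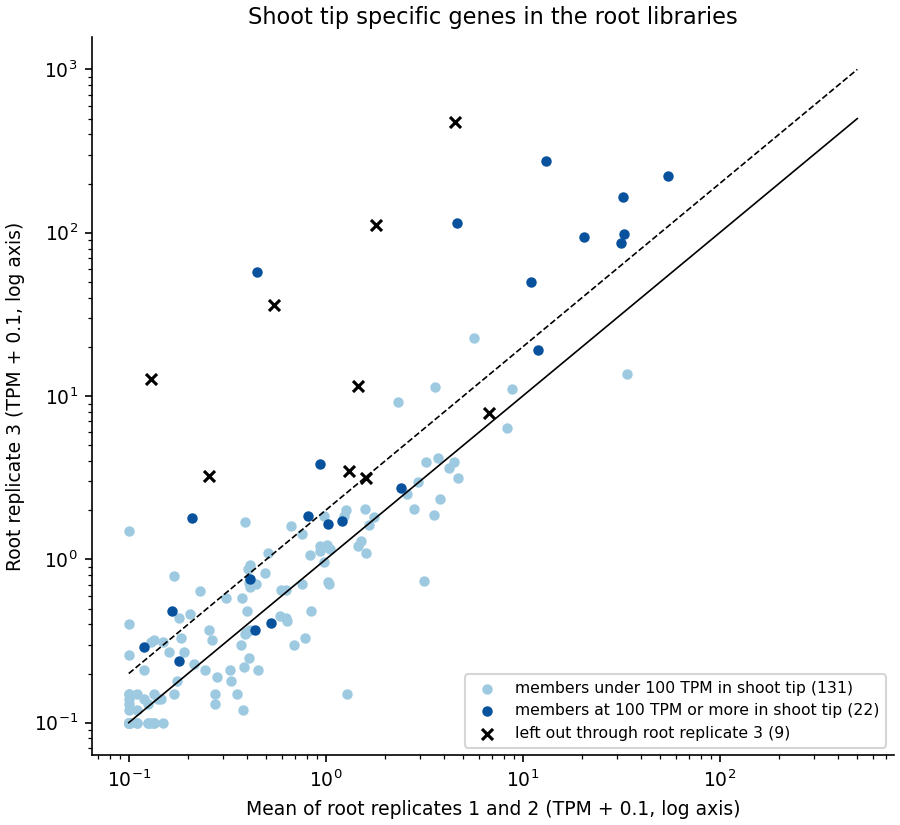
Root replicate 3 against the mean of root replicates 1 and 2 in TPM with 0.1 added, on log axes; points are the 153 members, dark where the shoot tip mean was at least 100 TPM, and crosses are the 9 genes left out through replicate 3. The solid line marks equal values and the dashed line 2-fold; 12 of the 22 dark points lie above the 2-fold line and at 1 TPM or more.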

How the data were processed

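The authors deposited 1 table of TPM values for 15 libraries. Tools named, per the submitters' processing notes, were RSEM 1.3.2, Bowtie2 2.3.4.3 and Trim Galore 0.5.0, with no settings. The assembly behind the identifiers, the counting filters and the genome build are not given in the sources used here. TPM keeps no depth, so no counting intervals were computed, and a fixed total per library means that a rise in some genes lowers others.

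Columns were joined to samples through their descriptions. The members and the lists were chosen with earlier results of these data known. Tests used limma 3.58.1 in R 4.3.3 on log2(TPM + 1), which understates fold changes of low genes, with the prior variance following the mean level. The fit was tested on simulated data. Means are followed by ± SD, and SE belongs to a fitted log2 difference. Figures used matplotlib 3.10.9 in Python 3.11.15.

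Named genes are the 2 highest and 2 lowest members by ratio, the 2 next left out by the fold or level limit, the 2 highest and 2 lowest by shoot tip mean, and the most abundant for each second tissue. Others are the 2 largest called differences each way per comparison, the interaction included (at least 1 TPM in the higher tissue, replicates not overlapping), the 2 largest ratios of root replicate 3, the 2 most variable in shoot tip, and the pair from 1 component. Alternatives tried were other pseudocounts, filters, scalings, weights and fits, a block on replicate number, other limits in the rule, and leaving out each library.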

Additional observations from a re-analysis of the deposited data

Results flagged for a closer look

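The difference between tip and organ was not the same in root and leaf for part of the members. The interaction tested with limma was called for 20 members in favour of root and 38 in favour of leaf, shares near those of all tested genes. Without root replicate 3 there were 22 and 34 (14.4% and 22.2%), beside 14.3% and 25.8% of all genes. With quantile normalization 15% of members were called in favour of root and 18.3% in favour of leaf, beside 16.9% and 17.1% of all genes.

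RT_TRINITY_DN3175_c0_g2 had the largest difference in favour of root, with an interaction of 6.81 on the log2 scale (SE 0.37, adjusted p = 1.5e-09), and 7.27 without root replicate 3. It was higher in root tip than root and lower in leaf tip than leaf. LA_TRINITY_DN15581_c1_g1 followed with 4.57 (SE 0.079, adjusted p = 1.8e-14), or 4.62 without that library, where root was low and leaf was slightly above leaf tip. In favour of leaf, SHA_TRINITY_DN814_c0_g2 had an interaction of -8.19 (SE 0.34, adjusted p = 8.9e-11), or -8.61 without it, with leaf tip above leaf and root tip below root. SHA_TRINITY_DN3129_c0_g1 had -6.98 (SE 1.4, adjusted p = 0.00063). Without root replicate 3 its interaction was -5.17 (SE 0.18, adjusted p = 2.3e-11), and root tip against root was then 0.72 on the log2 scale, with no call.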

How the results depend on the processing

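Counts of called members depended mainly on the pseudocount and the filter. The background moved as well, and shares of members are given beside those of all genes tested under the same setting. In leaf tip against root tip, a pseudocount of 5 changed 32 higher and 12 lower members to 12 and 3. These are 7.84% and 1.96%, beside 5.87% and 7.74% of all genes. Among genes whose mean over libraries reached 5 TPM there were 19 and 6 (30.6% and 9.68%, beside 14% and 16.6%). A pseudocount of 0.1 gave 57 higher (37.3%, beside 22.6%). In leaf tip against leaf, 56 and 8 became 22 and 2 with a pseudocount of 5 (14.4% and 1.31%, beside 13% and 6.57%). There were 31 higher at a mean of 5 TPM (50%, beside 30.6%). In root tip against root, 46 and 10 became 25 and 3 with a pseudocount of 5 (16.3% and 1.96%, beside 10% and 6.82%). There were 32 lower with one of 0.1 (20.9%, beside 19%) and 6 lower at a mean of 5 TPM (9.68%, beside 12.1%). In root against leaf, 12 and 30 became 3 and 9 with a pseudocount of 5 (1.96% and 5.88%, beside 9.52% and 7.6%). A pseudocount of 0.1 gave 37 and 44 (24.2% and 28.8%, beside 25.8% and 16.8%). At a mean of 5 TPM there were 6 higher (9.68%, beside 18.4%). For the interaction, 20 and 38 became 9 and 13 with a pseudocount of 5 (5.88% and 8.5%, beside 8.43% and 9.87%). A pseudocount of 0.1 gave 35 and 63 (22.9% and 41.2%, beside 17.3% and 30.9%). At a mean of 5 TPM 19 had the higher difference in leaf (30.6%, beside 19.6%). At a mean of 5 TPM only 62 members were tested.

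Median-ratio scaling shifted the median difference of all genes by -0.133, -0.382, -0.127, -0.168 and 0.33 in these comparisons, and no called member turned sign. With no limit on number the rule gave exactly 300 genes at 2-fold, 89 at 5-fold and 101 at 10 TPM; at 2-fold 190 carried the shoot tip code. Median-ratio scaling left 112 genes, all members, and quantile normalization 125, of which 124 were members. Leaving out each library in turn gave 151 to 164 genes, 145 to 153 of them members. Of 290 alternative values 265 were within 1.5 times the value reported, including all 180 that leave out 1 library. Many of these 180 leave out a library of a tissue outside the contrast, where the fitted difference cannot change. The other 25 came from the pseudocount, the filter and the limits in the rule.

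Same-numbered libraries showed no shared deviation from their tissue means (0 of 18 pairs had r over 0.1, leaf not included). This cannot show whether they came from the same plants or harvest. With a replicate block on the 12 numbered libraries leaf tip against root tip gave 32 and 12, beside 13.1% and 13.6% of all genes. Root tip against root gave 44 and 10, beside 18.8% and 13%. The members' counts were the same in a fit without the block on those libraries, added after the data were seen.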

Other observations

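The same rule applied to each other tissue as the high one, with no limit on number, gave sets of different size. With root as the high tissue the separate limit on root replicate 3 was not applied. There were 71 genes for leaf tip, 471 for root tip, 722 for leaf and 1801 for root, beside the 153 of shoot tip. The shoot tip set held 1.91% ± 0.0082 of the summed TPM of its own libraries, the leaf tip set 0.284% ± 0.00068, the root tip set 4.04% ± 0.027, the leaf set 24.5% ± 0.43 and the root set 20.2% ± 0.50 (SD, n = 3 each). Among the 71 leaf tip genes shoot tip came second for 41 and leaf for 27. Among the 471 root tip genes shoot tip came second for 223 and leaf tip for 25. The tissue's own code was carried by 73.7% of the root set, 72.5% of the shoot tip set, 66.5% of the root tip set, 66.2% of the leaf tip set and 55.8% of the leaf set. These sets were chosen from the same values and are given as a description, with no test.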
